A study of Mus musculus with 52 samples.

Results

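The genes described here are 9 genes of cyclic AMP response element binding protein (CREB) signalling: Creb1 and Crtc1, which carry the signal, Sik1, Crem and Pde4b, which feed back on it, and the targets Gadd45a, Gadd45b, Gadd45g and Ppargc1a. They were chosen by name, with earlier results of these data known. They account for 18 of 27815 transcription start-site windows in the RNA polymerase II (Pol II) table and, as nearest gene, for 20 of 940 regions in the H3K27ac table. The data come from ChIP-seq of CD1 mouse primary neurons in culture that had been pretreated with the MEK1/2 inhibitor U0126 or with vehicle (DMSO). Neurons of each pretreatment were fixed without stimulation or after activity. Pol II, precipitated with antibody ab817, was measured in neurons left unstimulated for 1 h or 6 h and after 1, 10, 30, 60, 180 and 360 min of activity. H3K27ac, precipitated with ab4729, was measured in unstimulated neurons and after 10, 30 and 60 min. Each group held 2 libraries, except U0126 with 180 min of activity for Pol II, which held 1, giving 31 Pol II and 16 H3K27ac libraries. The sources used here do not name the stimulus and do not say whether libraries of a group came from separate cultures, so each p-value reflects the scatter between libraries alone, which may be technical. The 5 input libraries of the series were not analysed here.

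CREB sits on DNA at cyclic AMP response elements and is switched on when kinases of the calcium, cyclic AMP and MAP kinase pathways phosphorylate it. CRTC1, a coactivator abundant in neurons, enters the nucleus after dephosphorylation and joins CREB at its targets. Some of those targets close the loop: SIK1 phosphorylates CRTC proteins and keeps them out of the nucleus, an internal promoter of Crem gives the repressor ICER, and PDE4B hydrolyses cyclic AMP. GADD45 proteins act in growth arrest and DNA damage signalling, and in neurons Gadd45b is known as an activity-induced gene linked to DNA demethylation. Ppargc1a encodes PGC-1α, a coactivator of mitochondrial biogenesis.

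The RefSeq promoter table (GRCm38.p6) held 10 entries for 7 of the 9 genes, and Sik1 and Crem are named only. Of each entry the 250 bases before the gene's start were searched for the full cyclic AMP response element TGACGTCA and for its shorter core TGACG, called the short site here, on both strands. A full element contains the short site on each strand. The full element was in 0 of the 10 entries and in 508 of 32851 promoters in the whole table (1.55%). The short site was in 2 of the 10 entries and in 5836 promoters of the table (17.8%). Below are the promoters of Gadd45b, Gadd45g and Creb1, 3 genes whose Pol II density is described in detail, and the 2 entries with the short site. They are written 5′ to 3′ on the gene's strand, with the short site, here in its reverse complement CGTCA, in capitals. They lie at chr10:80929841-80930090 (plus strand), chr13:51846425-51846674 (plus), chr1:64532554-64532803 (plus), chr4:102421305-102421554 (plus) and chr5:51567726-51567975 (minus). The Pol II windows are in mm9, a different build, and were not matched to these starts.
Gadd45b: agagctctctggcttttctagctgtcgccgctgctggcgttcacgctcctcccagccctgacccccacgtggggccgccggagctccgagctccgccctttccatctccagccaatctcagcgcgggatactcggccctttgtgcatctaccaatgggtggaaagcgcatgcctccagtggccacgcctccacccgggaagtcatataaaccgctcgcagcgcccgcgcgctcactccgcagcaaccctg
Gadd45g: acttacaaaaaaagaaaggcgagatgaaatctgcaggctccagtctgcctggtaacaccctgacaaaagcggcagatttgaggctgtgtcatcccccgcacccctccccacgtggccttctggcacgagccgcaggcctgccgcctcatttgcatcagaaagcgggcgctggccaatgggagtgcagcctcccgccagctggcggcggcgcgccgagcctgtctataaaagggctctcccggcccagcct
Creb1: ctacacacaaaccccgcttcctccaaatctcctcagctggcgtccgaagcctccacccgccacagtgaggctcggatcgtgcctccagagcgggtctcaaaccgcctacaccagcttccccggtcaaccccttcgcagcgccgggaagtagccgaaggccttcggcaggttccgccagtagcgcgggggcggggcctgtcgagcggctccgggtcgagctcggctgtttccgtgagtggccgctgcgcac
Pde4b: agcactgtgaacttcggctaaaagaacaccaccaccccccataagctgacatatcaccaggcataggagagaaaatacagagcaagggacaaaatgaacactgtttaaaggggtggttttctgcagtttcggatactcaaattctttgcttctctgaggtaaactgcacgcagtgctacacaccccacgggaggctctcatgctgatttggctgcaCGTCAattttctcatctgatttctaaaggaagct
Ppargc1a: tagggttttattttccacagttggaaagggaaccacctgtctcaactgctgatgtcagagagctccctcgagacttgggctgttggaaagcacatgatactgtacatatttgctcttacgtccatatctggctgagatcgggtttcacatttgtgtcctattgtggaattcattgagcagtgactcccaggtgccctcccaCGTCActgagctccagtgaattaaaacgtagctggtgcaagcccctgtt
The short site lay 34 to 30 bases before the start in Pde4b and 49 to 45 bases before it in Ppargc1a. The letters describe these stretches of sequence and say nothing of where CREB was bound.

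Pol II values are the authors' normalized density in a 600 bp window per start site, summing to between 15568 and 18507 over all windows of a library. Replicates correlated across windows with r between 0.766 and 0.863. Both 30 min libraries numbered 1 stood apart: 9.52% of windows were at 0 with U0126 and 11.5% with vehicle, against 0.723% to 4.82% in every other Pol II library. H3K27ac replicates were less alike (r 0.302 to 0.798), and the second U0126 library at 30 min had the highest summed signal, 1623.7, against 1129.1 to 1396.6 in the others. Of the markers of cultured cell types, 7 of 8 neuronal genes passed the filter on low density, with a summed density of 9.09 to 13.8 per library. For other cell types, 2 of 6 astrocyte markers passed (summed density 1.05 to 2.45), 4 of 6 of the oligodendrocyte lineage (2.12 to 4.1), 0 of 6 of microglia (0.197 to 1.51) and 0 of 4 of endothelium (0.313 to 1.1). The files give no read counts, so the depth of each library is unknown.

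The windows differed widely in level. Averaged over the 31 libraries, density was highest at Gadd45g (chr13:51941743-51942343, mm9), 4.57, above 99.7% of all windows. Gadd45b (chr10:80392535-80393135) followed at 3.58, Creb1 (chr1:64579077-64579677) at 2.74 and the strongest of 5 Crem windows (chr18:3337287-3337887) at 2.05. Gadd45a (chr6:66987101-66987701) had 1.43, Crtc1 (chr8:72963172-72963772) 1.25 and Sik1 (chr17:31992437-31993037) 0.77. The strongest of 5 Pde4b windows (chr4:101927243-101927843) had 0.562 and the stronger of 2 Ppargc1a windows had 0.339. Windows have one length, so these densities compare directly, although the ranges over libraries of neighbours in this order overlapped. The authors placed Gadd45g in their rPRG class of 19 windows, and Sik1 and the strongest Crem window in their dPRG class of 116. In 13 of the 18 windows the mean reached 0.282, the median of all windows, and these were tested among 13908 windows with limma on log2(density + 0.146), which understates the change of low windows.

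In vehicle-treated neurons Pol II was higher with activity at Sik1, Creb1 and Gadd45b. At 30 min these were the 3 of 13 windows called at an adjusted p under 0.05. The calls depended on single libraries and on the normalization, as given below. Over all windows tested 1.55% were called at 30 min, 186 higher and 29 lower. Sik1 rose by 1.51 ± 0.38 (log2 fold change ± SE, 2 libraries a group, adjusted p = 0.0365), Creb1 by 1.19 ± 0.23 (adjusted p = 0.00491) and Gadd45b by 1.38 ± 0.28 (adjusted p = 0.00737). In the mean of 10, 30 and 60 min the same 3 windows were called, against 1.21% of all windows, with changes of 1.31 ± 0.31 for Sik1 (adjusted p = 0.0274), 0.92 ± 0.19 for Creb1 (adjusted p = 0.00811) and 0.97 ± 0.23 for Gadd45b (adjusted p = 0.0245). The median of the 13 windows at 30 min was 0.70, beside 0.02 over all windows tested, and 0.24 with quantile normalization. Of the 13, 8 were above 0, as were 52.1% of all windows tested. Crem and Pde4b each hold several of the 13. In bulk ChIP a larger share of responding cells and more Pol II per cell cannot be told apart.

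Sik1, the kinase that holds CRTC proteins in the cytoplasm, started low. Its density in vehicle was 0.325 and 0.402 in neurons unstimulated for 1 h, 0.432 and 0.440 at 1 min, 1.15 and 0.723 at 10 min, 1.53 and 1.12 at 30 min, and 1.37 and 1.03 at 60 min. It was 0.964 and 0.368 at 180 min and 0.915 and 0.553 at 360 min, against 0.642 and 0.323 unstimulated for 6 h. All 6 libraries from 10 to 60 min lay above all 4 unstimulated ones, while the later libraries overlapped them. How many of all windows separate in this way was not counted. Here and below, such orderings of libraries are descriptions and not tests. At 30 min the mean density was 1.32 ± 0.288 (SD, n = 2), against 0.364 ± 0.054 without stimulation.

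Creb1 encodes the transcription factor itself. Its vehicle density was 1.67 and 1.63 unstimulated for 1 h, 2.80 and 1.91 at 1 min, 2.86 and 3.01 at 10 min, 4.69 and 3.36 at 30 min, and 2.54 and 3.51 at 60 min. It was 3.02 and 2.94 at 180 min and 2.75 and 2.33 at 360 min, against 1.89 and 2.24 unstimulated for 6 h. At each of the 6 times both active libraries were above both unstimulated libraries of the matching duration.

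Gadd45b, the activity-induced GADD45 gene, had 1.64 and 3.28 unstimulated for 1 h, 2.56 and 3.94 at 1 min, 3.45 and 4.73 at 10 min, 7.56 and 5.26 at 30 min, and 3.67 and 4.69 at 60 min in vehicle. It had 2.93 and 3.08 at 180 min and 3.38 and 3.26 at 360 min, against 2.35 and 3.22 unstimulated for 6 h. The highest pair was at 30 min, with a mean of 6.41 ± 1.62 (SD, n = 2), against 2.46 ± 1.15 unstimulated for 1 h. The differences between times were not called: 30 min minus 10 min was 0.63 ± 0.28 (adjusted p = 0.599) and 60 min minus 30 min was -0.60 ± 0.28 (adjusted p = 0.999), where limma called 0.00719% of windows at 30 against 10 min and 0 of 13908 at 60 against 30 min (462 at an unadjusted p under 0.05).

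Gadd45g, the related family member with the highest density, had 2.46 and 4.83 unstimulated for 1 h, 3.56 and 5.12 at 1 min, 6.26 and 5.87 at 10 min, 5.50 and 5.97 at 30 min, and 4.92 and 5.58 at 60 min in vehicle. It had 4.37 and 4.98 at 180 min and 3.87 and 3.75 at 360 min, against 3.10 and 4.36 unstimulated for 6 h. From 10 to 60 min all 6 libraries were above the 4 unstimulated ones, but the unstimulated 1 h pair lay far apart. The log2 fold change was 0.70 ± 0.24 at 30 min (adjusted p = 0.136) and 0.68 ± 0.20 in the mean of 10 to 60 min (adjusted p = 0.0726). With all libraries and no replicate block neither was called. Without unstimulated 1 h replicate 2, only the library at 2.46 set the baseline. The change was then 1.25 at 10 min, 1.17 at 30 min and 1.15 in the mean. The library left out, at 4.83, lay closer to the active ones. With all libraries and a replicate block, limma called Gadd45g at 10 min, 30 min and in the mean (adjusted p = 0.0289, 0.0213 and 0.00541). The block called 1.06%, 5.41% and 4.67% of all windows tested in those comparisons.

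Crem, whose internal promoter yields the ICER repressor, was followed in 5 windows. The strongest had 1.72 and 1.54 unstimulated for 1 h, 1.10 and 2.29 at 1 min, 2.50 and 2.41 at 10 min, 3.63 and 2.74 at 30 min, and 1.86 and 1.99 at 60 min in vehicle. It had 2.14 and 1.67 at 180 min and 2.21 and 1.87 at 360 min, against 1.74 and 1.76 unstimulated for 6 h. All 6 libraries from 10 to 60 min stood above the 4 unstimulated ones, and at 30 min the log2 fold change of 0.89 ± 0.24 had an adjusted p of 0.0541. In fits of all libraries without a replicate block it was called at 30 min with the pseudocount at percentile 50 (0.83), with no centring (0.90) and with centring over all windows (1.21). Leaving out the vehicle 30 min replicate 2 gave 1.09. That fit rests at 30 min on replicate 1 alone, in which 11.5% of windows were at 0. A window of the predicted gene Gm6225 lies within 1.5 kb of it, and Pol II ChIP carries no strand.

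**Figure D1:**
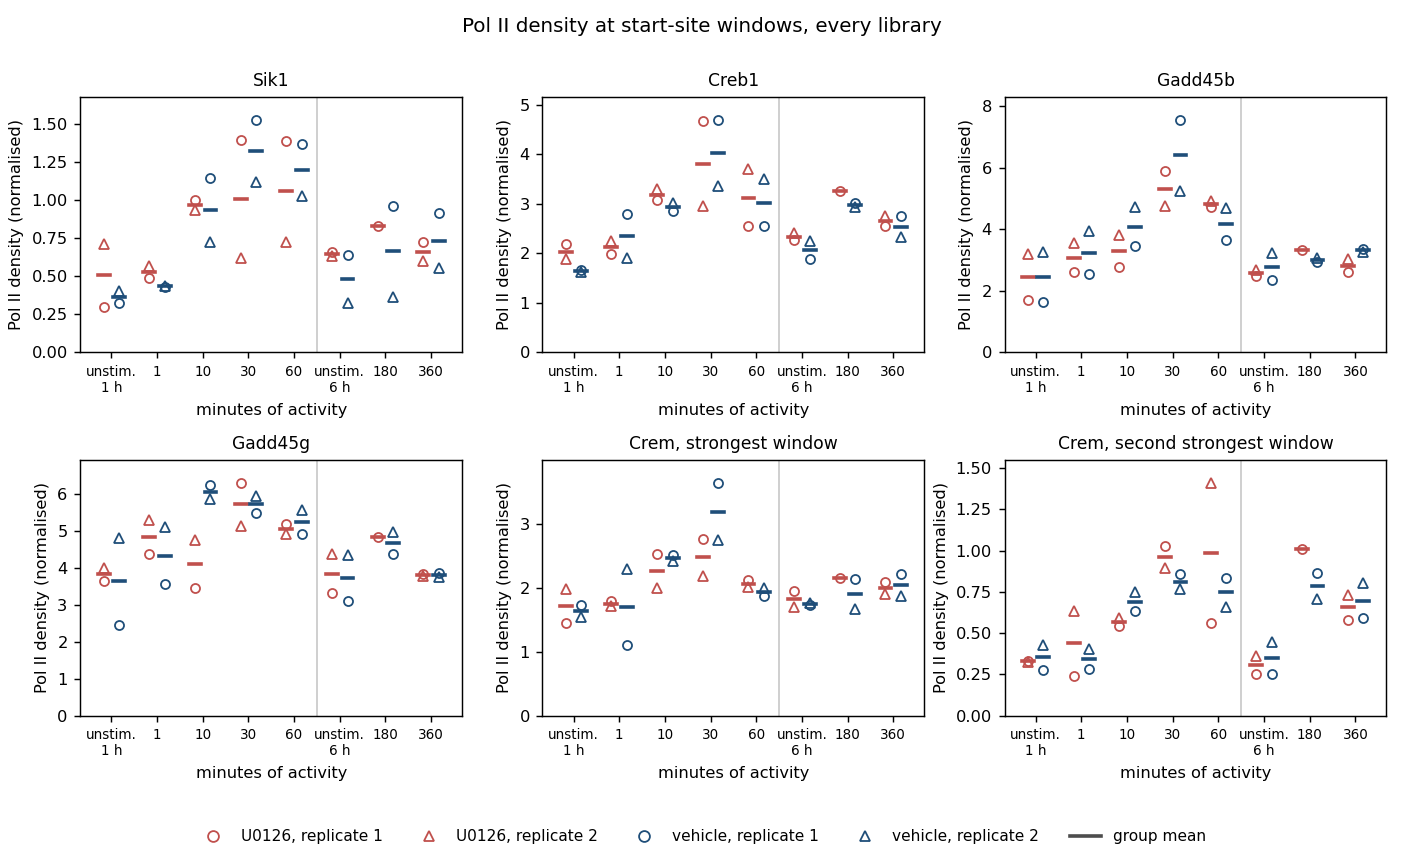
Normalized Pol II density (vertical axes, linear and from 0) by minutes of activity in 6 windows: Sik1, Creb1, Gadd45b, Gadd45g and the strongest and second strongest Crem windows. Points are libraries (circles replicate 1, triangles replicate 2), bars are group means, U0126 stands left of vehicle, times are evenly spaced, and the grey line separates the groups set against 1 h and 6 h without stimulation. Gadd45b reaches 7.56 in 1 vehicle library at 30 min, and Sik1 lies at 1.03 or more in both vehicle libraries at 30 and 60 min.

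The 3 calls were lost when certain single libraries were left out. Without the vehicle 30 min replicate 1, which holds many windows at 0, the 30 min changes were 1.30 for Sik1 (adjusted p = 0.571), 0.96 for Creb1 (adjusted p = 0.348) and 1.11 for Gadd45b (adjusted p = 0.407). Leaving out unstimulated 1 h replicate 1 gave 1.40 for Sik1 (adjusted p = 0.359), 1.21 for Creb1 (adjusted p = 0.119) and 0.91 for Gadd45b (adjusted p = 0.377), and for the mean of 10 to 60 min gave 1.20, 0.93 and 0.50 (adjusted p = 0.460, 0.248 and 0.720). Sik1 was also not called at 30 min without unstimulated 1 h replicate 2 (1.62, adjusted p = 0.0953). In the mean, Creb1 was still called in 6 of 8 fits that left out 1 library, and was also lost without unstimulated 1 h replicate 2 (0.90, adjusted p = 0.0997). Gadd45b was called in 4 of 8, and was also lost without replicate 1 at 30 min (adjusted p = 0.0696) or replicate 2 at 10 or 60 min (adjusted p = 0.0530 and 0.0634). Sik1 was called in 3 of 8, and was also lost without unstimulated 1 h replicate 2 (1.42, adjusted p = 0.122) or replicate 1 at 10, 30 or 60 min (adjusted p = 0.0672, 0.078 and 0.0665). Quantile normalization ended the 3 calls at 30 min, with changes of 1.54, 0.75 and 0.81 for Sik1, Creb1 and Gadd45b (adjusted p = 0.104, 0.142 and 0.258), and those of Creb1 and Gadd45b in the mean (0.61 and 0.57, adjusted p = 0.0984 and 0.301). Centring over all windows ended the call of Gadd45b in the mean (1.18). The direction was positive for all 3 windows in every fit run.

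With a replicate block, limma called Creb1 and Gadd45g at 10 min in vehicle, and Sik1, Creb1 and Gadd45b at 60 min. The block called 1.06% and 1.17% of all windows tested there. In the main fit, with all libraries and no block, no member was called at times other than 30 min. That fit called 0.23% of windows at 10 min and 0.165% at 60 min in vehicle. Sik1 was 1.05 ± 0.38 higher at 10 min and 1.38 ± 0.38 higher at 60 min, Creb1 0.77 and 0.79 (SE 0.23 each) and Gadd45b 0.75 and 0.78 (SE 0.28 each). At 1, 180 and 360 min limma called 0 of 13908 windows, beside 451, 657 and 425 at an unadjusted p under 0.05. At 180 min the log2 fold change was 0.24 at Sik1, 0.44 at Creb1 and 0.05 at Gadd45b. The 180 min change minus the 30 min change was -1.33 ± 0.39 for Gadd45b (adjusted p = 0.606), -1.27 ± 0.54 for Sik1 (adjusted p = 0.752) and -0.76 ± 0.33 for Creb1 (adjusted p = 0.752), in a comparison that called 0.0216% of windows.

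**Figure D2:**
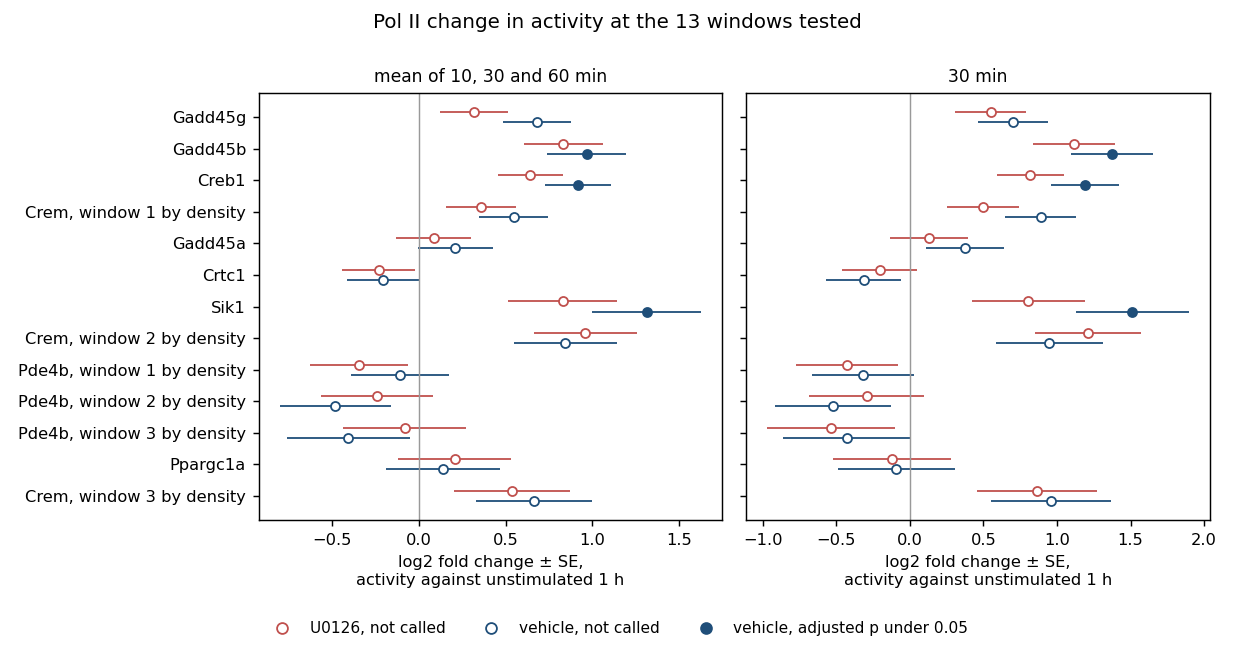
Log2 fold change of Pol II density (activity against unstimulated 1 h, on the log2(density + 0.146) scale) in the 13 tested windows, in the mean of 10, 30 and 60 min (left) and at 30 min (right), for U0126 (above) and vehicle. Bars are ± 1 SE of the limma fit and filled points were called. The filled points are Sik1, Creb1 and Gadd45b in vehicle, at 1.51, 1.19 and 1.38 at 30 min.

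Crtc1, the coactivator gene, and Gadd45a were not called at any time. Crtc1 density in vehicle was 1.14 and 1.55 unstimulated for 1 h, 0.773 and 1.16 at 1 min, 1.62 and 1.11 at 10 min, 0.972 and 1.12 at 30 min, and 0.908 and 1.22 at 60 min. Gadd45a had 1.12 and 1.18, 1.30 and 1.86, 1.69 and 1.08, 1.70 and 1.40, and 1.15 and 1.28 at those points. Active and unstimulated libraries overlapped at 4 of 6 times in Gadd45a and at 5 of 6 in Crtc1. With U0126, Crtc1 had 1.51 and 1.47 unstimulated for 1 h, 1.24 and 1.22 at 10 min, 1.31 and 1.26 at 30 min, and 1.37 and 1.27 at 60 min. All 6 of these active libraries lay below that unstimulated pair, with a mean log2 change of -0.23 ± 0.21 (adjusted p = 0.811). The 30 min changes were -0.31 for Crtc1 and 0.37 for Gadd45a, and Crtc1 was at 0.01 when all windows, or no filter, set the scale. A window of E230016M11Rik lies within 1.5 kb of Gadd45a.

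Ppargc1a and Pde4b, the mitochondrial coactivator and the phosphodiesterase, gave low densities. The stronger Ppargc1a window in vehicle had 0.373 and 0.336 unstimulated for 1 h, 0.105 and 0.182 at 1 min, 0.395 and 0.347 at 10 min, 0.180 and 0.536 at 30 min, and 0.503 and 0.613 at 60 min. Both libraries lay below the unstimulated pair at 1 min and above it at 60 min, with a 60 min change of 0.47 that was not called. The strongest Pde4b window had 0.646 and 0.578, 0.486 and 0.331, 0.719 and 0.536, 0.335 and 0.631, and 0.576 and 0.635 at the same points. It had 0.868 and 0.776 at 180 min and 0.693 and 0.976 at 360 min, against 0.550 and 0.618 unstimulated for 6 h. Both late pairs lay above the unstimulated pair, with changes of 0.34 and 0.37 that were not called.

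**Figure D3:**
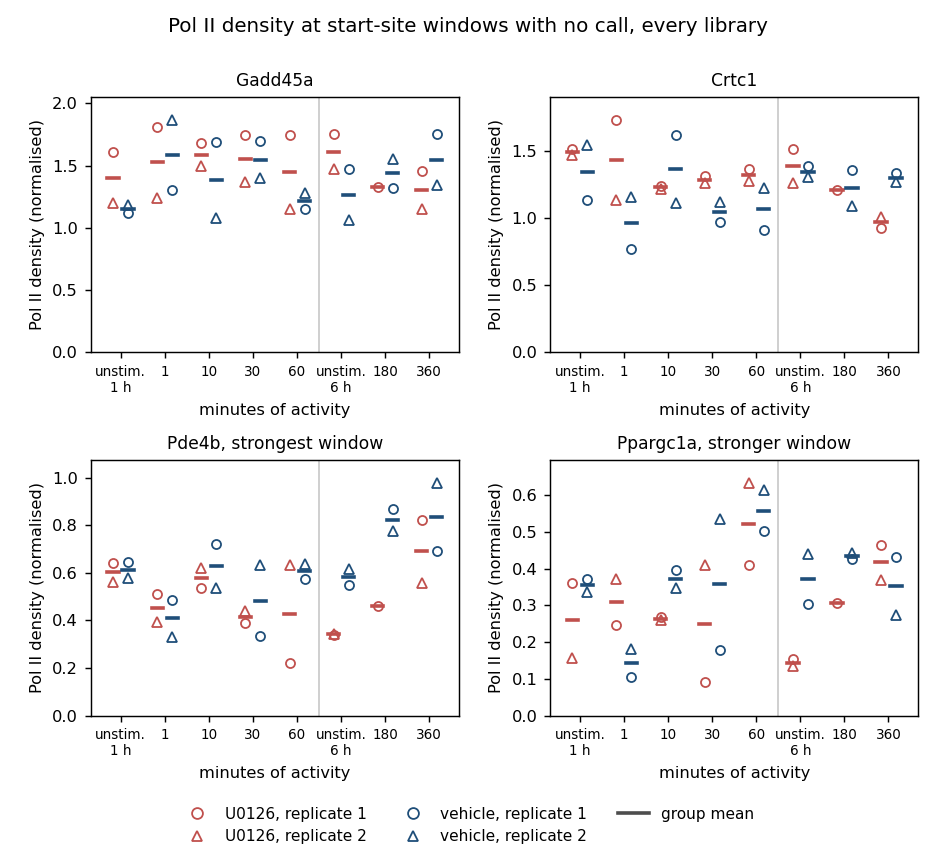
Normalized Pol II density (vertical axes, linear and from 0) by minutes of activity at Gadd45a, Crtc1, the strongest Pde4b window and the stronger Ppargc1a window, with circles for replicate 1, triangles for replicate 2, bars for group means, U0126 left of vehicle and evenly spaced times. In vehicle, active and unstimulated libraries overlap at most times for Gadd45a and Crtc1. With U0126, the Crtc1 libraries from 10 min on lie below the unstimulated ones of the matching duration. The vehicle Pde4b libraries reach 0.868 and 0.976 at 180 and 360 min.

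In the main fit, with all libraries and no replicate block, no member window was called at any time with U0126. The 3 windows that rose in vehicle pointed the same way. With the block, limma called Creb1, Gadd45b and the second strongest Crem window at 30 min and in the mean of 10 to 60 min. It also called Gadd45b at 60 min. Over all windows the shares called were 2.57% at 30 min, 2.06% in the mean and 0.475% at 60 min. In vehicle the block called 5 of 13 windows at 30 min and 4 in the mean, against 5.41% and 4.67%. Sik1 had 0.299 and 0.713 unstimulated for 1 h, 0.486 and 0.568 at 1 min, 1.00 and 0.934 at 10 min, 1.40 and 0.620 at 30 min, and 1.39 and 0.726 at 60 min. Creb1 had 2.18 and 1.88, 2.00 and 2.24, 3.07 and 3.30, 4.67 and 2.95, and 2.55 and 3.69 at those points. Gadd45b had 1.72 and 3.19, 2.62 and 3.55, 2.78 and 3.82, 5.89 and 4.75, and 4.74 and 4.92. All 6 Creb1 libraries from 10 to 60 min were above its 4 unstimulated libraries, whereas those of Sik1 and Gadd45b overlapped them.

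The other strong windows with U0126 gave Gadd45g 3.64 and 4.01, 4.40 and 5.31, 3.45 and 4.77, 6.30 and 5.15, and 5.20 and 4.93 at those points. The strongest Crem window gave 1.44 and 1.97, 1.79 and 1.71, 2.52 and 2.00, 2.76 and 2.19, and 2.12 and 2.00. The second Crem window gave 0.330 and 0.326, 0.242 and 0.634, 0.545 and 0.591, 1.03 and 0.892, and 0.563 and 1.41. Both Crem windows were above all 4 of their unstimulated libraries from 10 to 60 min, while at Gadd45g a 10 min library lay among the unstimulated ones.

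In the mean of 10 to 60 min the U0126 changes were 0.83 ± 0.31 for Sik1 (adjusted p = 0.299), 0.64 ± 0.19 for Creb1 (adjusted p = 0.136) and 0.83 ± 0.23 for Gadd45b (adjusted p = 0.0958). Limma called 0.316% of windows in that comparison, 0.0144% at 10 min, 0.23% at 30 min and 0.108% at 60 min. At 1, 180 and 360 min it called 0 of 13908, beside 355, 668 and 408 at an unadjusted p under 0.05. Without U0126 30 min replicate 2, Creb1 changed by 1.13 at 30 min and 0.75 in the mean, and Gadd45b by 1.26 at 30 min. That fit rests at 30 min on replicate 1 alone, in which 9.52% of windows were at 0. Without U0126 unstimulated 1 h replicate 2, Gadd45b changed by 1.54 at 30 min.

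The U0126 and vehicle responses themselves were compared through the difference of their changes, which addresses whether MEK inhibition altered the response. For the mean of 10 to 60 min it was -0.48 ± 0.44 at Sik1, -0.27 ± 0.27 at Creb1, -0.14 ± 0.32 at Gadd45b and -0.36 ± 0.28 at Gadd45g, with limma calling 0 of 13908 windows (359 at an unadjusted p under 0.05). The interval of ± 2 SE at Sik1 takes in both 0 and a loss as large as the vehicle change of 1.31. Compared directly during activity, U0126 minus vehicle was -0.18 ± 0.22 at Sik1, 0.02 ± 0.13 at Creb1, -0.11 ± 0.16 at Gadd45b and -0.21 ± 0.14 at Gadd45g in the mean of 10 to 60 min. No member was among the 0.00719% of windows called. At 10 min Gadd45g had 3.45 and 4.77 with U0126, against 6.26 and 5.87 with vehicle, a difference of -0.55 ± 0.24 (adjusted p = 1). In neurons unstimulated for 1 h the differences were 0.30 ± 0.38 at Sik1 and 0.29 ± 0.23 at Creb1.

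Several start sites of Crem and Pde4b could be compared within the gene. The second strongest Crem window (chr18:3280830-3281430) lies 56457 bp from the strongest. In vehicle it had 0.277 and 0.429 unstimulated for 1 h, 0.279 and 0.405 at 1 min, 0.631 and 0.751 at 10 min, 0.858 and 0.764 at 30 min, and 0.836 and 0.659 at 60 min. It had 0.861 and 0.708 at 180 min and 0.591 and 0.803 at 360 min, against 0.249 and 0.447 unstimulated for 6 h. From 10 to 360 min every library lay above every unstimulated one, while at the strongest Crem window the 180 min pair overlapped the 6 h unstimulated pair.

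The changes at the second Crem window were 0.95 ± 0.36 at 30 min (adjusted p = 0.19) and 0.87 at 180 min, against 0.89 and 0.03 at the strongest. The direct test set the log2 difference between the windows in active libraries against unstimulated ones. Over 10 to 60 min it was -1.55 ± 0.31 in active libraries, against -1.91 ± 0.34 in unstimulated ones (SD), a change of 0.36 (6 against 4 libraries, two-sided exact permutation p = 0.114, adjusted over 3 pairs 0.343). Over 180 and 360 min, a test added after seeing the data, it was -1.26 ± 0.28 in active libraries and the change was 0.65 (4 against 4 libraries, exact permutation p = 0.0571, adjusted 0.0857), where the smallest p possible is 0.0286. Another Crem window (chr18:3281445-3282045) lies beside the second, and its log2 difference from the strongest was -2.34 ± 0.34 in active libraries over 10 to 60 min, against -2.57 ± 0.47 in unstimulated ones, a change of 0.24 (exact permutation p = 0.362). With U0126 the second window's change in the mean of 10 to 60 min was 0.96 ± 0.30 (adjusted p = 0.164).

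The Pde4b window at chr4:102262147-102262747 lies 334904 bp from the strongest. Its log2 difference from the strongest over 10 to 60 min was -0.65 ± 0.60 in active libraries, against -0.54 ± 0.32 in unstimulated ones, a change of -0.11 (exact permutation p = 0.886). Over 180 and 360 min it was -1.24 ± 0.32 in active libraries, a change of -0.70 (exact permutation p = 0.0571, adjusted 0.0857, again added after seeing the data). The window at chr4:101927046-101927646 overlaps the strongest and can share reads with it. In the 5 windows below the filter, 2 of Crem, 2 of Pde4b and 1 of Ppargc1a, densities averaged 0.0751 to 0.240, and a fit with no filter called none of them. Libraries were at 0 in 3 of these windows, in 2 or 3 libraries each.

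The wider pathway was read from lists of genes, each by its strongest window. The lists were chosen with earlier results of these data known, so their shares of calls are not independent support. Of 22 other known CREB targets 17 were tested. In the mean of 10 to 60 min 7 rose with U0126 and 10 rose in vehicle, where 0.316% and 1.21% of all windows tested were called, and none fell in either. The list's median was 0.88 with U0126 and 1.16 in vehicle, beside 0.03 and 0.02 over all windows. The 10 in vehicle included the nuclear receptor genes Nr4a1 at 1.96 ± 0.24 (adjusted p = 6.05e-06), Nr4a2 at 1.87 and Nr4a3 at 1.97, and the AP-1 genes Fos at 1.71, Fosb at 1.80 and Junb at 1.08. The others were the prohormone convertase gene Pcsk1 at 1.31, the phosphatase gene Dusp1 at 1.23, the clock gene Per1 at 1.16 and the neuropeptide precursor gene Vgf at 1.19. Of these 10, Dusp1 (0.81 ± 0.21, adjusted p = 0.0732), Per1 (1.06) and Vgf (0.94) were not called with U0126. In that mean, U0126 minus vehicle was above 0 at 1 of the 17 and at 48.2% of all windows tested. Its median was -0.26 over the list beside -0.01 over all windows, and limma called none of the 17.

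Among 11 tested of 12 genes that act with GADD45 or in DNA demethylation, Pcna, the sliding clamp that GADD45 proteins bind, rose by 1.02 ± 0.18 in the mean of 10 to 60 min with U0126 (adjusted p = 0.00259) and by 0.91 ± 0.18 in vehicle (adjusted p = 0.00546). At 30 min in vehicle it rose by 1.34 ± 0.22 (adjusted p = 0.000632). Ercc5, the repair nuclease XPG, rose by 0.85 ± 0.22 at 30 min in vehicle (adjusted p = 0.0365), and the other 9 were not called. Tet3, a 5-methylcytosine dioxygenase, had 0.59 ± 0.27 in the mean. In the 5 remaining lists no gene was called in vehicle in the mean of 10 to 60 min or at 30 min: CREB partners and coactivators (10 tested), cyclic AMP synthesis and PKA (14), other phosphodiesterases (7), kinases and phosphatases of CREB and CRTC (18) and the PGC-1 family and its partners (10). The largest values there were -0.96 ± 0.31 for Camk4, a nuclear CREB kinase (adjusted p = 0.118), and 0.86 ± 0.27 for Sik3, a relative of Sik1 (adjusted p = 0.11).

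Over the 16 Pol II group means, which share libraries' normalization and activity times, the window most like Sik1 was Sclt1 (r = 0.935), followed by Arih1 (0.931) and Map1lc3a (0.928). Creb1 was most like Serinc3 (r = 0.951), Lbh (0.94) and Taf13 (0.938). Gadd45b was most like Skp1a (r = 0.965), Fth1 (0.96) and Cadm1 (0.958).

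H3K27ac, an acetylation mark of active enhancers and promoters, was deposited for 20 regions nearest one of the genes: 8 for Gadd45g, 7 for Sik1, 4 for Gadd45b and 1 for Crem. Values are the authors' normalized signal per region, whose scale the sources used here do not state. Distances below run from the middle of a region to a start site, which lies in the middle of a Pol II window. In the main fit, with all libraries and no replicate block, limma called 0 of 940 regions (0%) in every comparison. With U0126 21, 34 and 41 regions had an unadjusted p under 0.05 at 10, 30 and 60 min, and in vehicle 12, 40 and 37. With the replicate number as a block these were 55, 85 and 120 with U0126 and 50, 140 and 119 in vehicle. The block called 12 regions with U0126 and 7 in vehicle at 60 min, and no member. With U0126, 3, 7 and 6 of the 20 regions were above unstimulated at 10, 30 and 60 min, and in vehicle 3, 3 and 5. Of all 940 regions 49.1%, 49.9% and 54.6% were above unstimulated with U0126 and 51.2%, 53.5% and 57% in vehicle. The median change was -0.24, -0.09 and -0.15 with U0126 and -0.24, -0.34 and -0.21 in vehicle, on log2(signal + 0.628).

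The region nearest Sik1 (chr17:31993200-31994330, mm9, 1028 bp away) had the highest mean signal of the 20. With U0126 it had 1.82 and 2.08 unstimulated, 1.64 and 5.05 at 10 min, 2.71 and 8.35 at 30 min, and 3.13 and 6.31 at 60 min. With vehicle it had 2.57 and 2.83, 2.12 and 5.08, 2.98 and 5.04, and 5.28 and 5.09 at those points. At 30 and 60 min all libraries were above the unstimulated libraries of the same pretreatment, whereas at 10 min replicate 1 was below them in both. The changes were 0.50, 1.03 and 1.00 with U0126 and 0.28, 0.52 and 0.84 with vehicle (SE 0.56 each), and without replicate 2 at 10 min they were -0.20 and -0.23. Same-numbered libraries of this assay deviated together, and with the replicate number as a block the 60 min change had an adjusted p of 0.229 with U0126 and 0.319 with vehicle. The block called 1.28% of regions at 60 min with U0126 and 0.745% with vehicle, and no member.

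**Figure D4:**
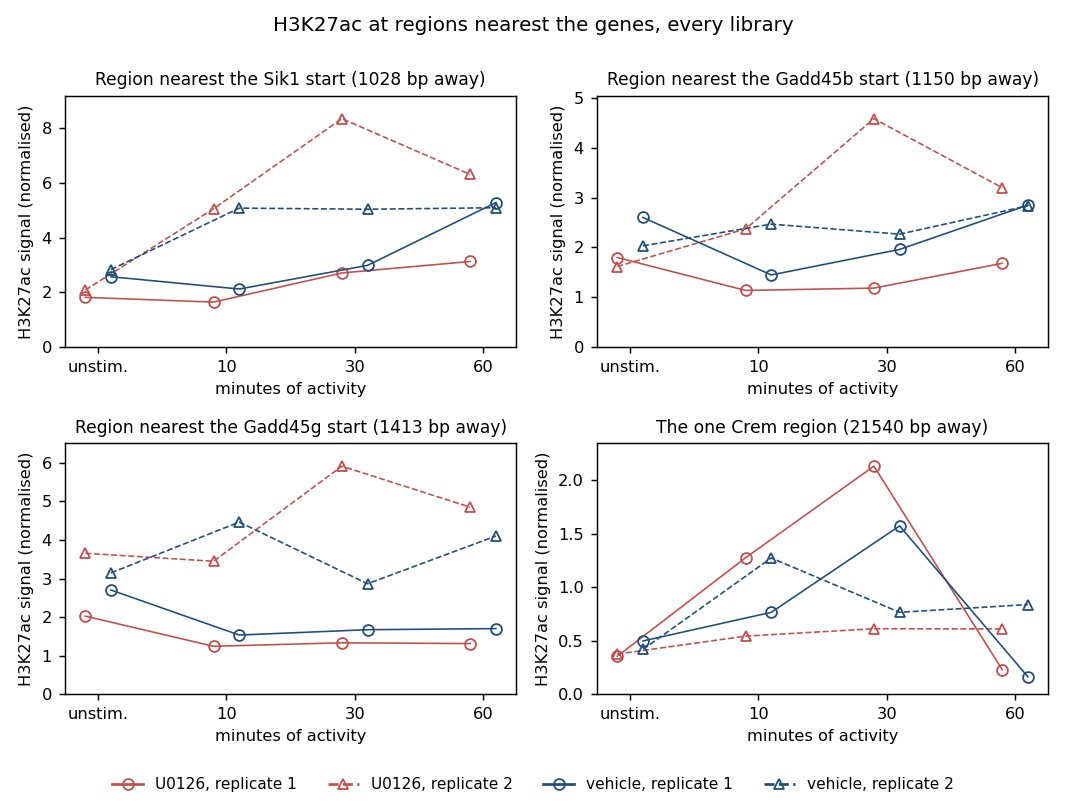
Normalized H3K27ac signal (vertical axes, linear and from 0) by minutes of activity in the regions nearest Sik1, Gadd45b and Gadd45g and in the region whose nearest gene is Crem. Points are libraries (circles replicate 1, triangles replicate 2), lines join libraries of one replicate number, U0126 stands left of vehicle, and times are evenly spaced. The second U0126 library at 30 min is at 8.35 for Sik1 and 4.59 for Gadd45b.

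The region nearest Gadd45b (chr10:80390840-80392530, 1150 bp away) had 1.80 and 1.62 unstimulated, 1.14 and 2.37 at 10 min, 1.18 and 4.59 at 30 min, and 1.68 and 3.20 at 60 min with U0126. With vehicle it had 2.60 and 2.03, 1.45 and 2.47, 1.96 and 2.27, and 2.85 and 2.84. Both vehicle libraries at 60 min were above the unstimulated pair, by 0.28 ± 0.44 on the log2 scale. The Gadd45g region at 1413 bp (chr13:51940050-51941210) had changes of -0.07, -0.25 and -0.06 with vehicle (SE 0.68), and the one 40808 bp away (chr13:51900650-51901820) had -0.50, -0.63 and -0.82 with U0126 and -0.54, -0.87 and -0.90 with vehicle.

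The single Crem region (chr18:3259700-3260710) lies 21540 bp from the start in the Crem window at chr18:3281445-3282045, and farther from the strongest Crem window. With U0126 the region had 0.36 and 0.38 unstimulated, 1.28 and 0.54 at 10 min, 2.13 and 0.61 at 30 min, and 0.23 and 0.61 at 60 min. With vehicle it had 0.50 and 0.42, 0.77 and 1.28, 1.57 and 0.77, and 0.16 and 0.84. At 10 and 30 min all libraries lay above the unstimulated ones of the same pretreatment, and at 60 min replicate 1 lay below them in both. The log2 changes were 0.61, 0.84 and 0.06 with U0126 and 0.61, 0.76 and 0.03 with vehicle.

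Between pretreatments, U0126 minus vehicle at 30 min was above 0 at 17 of the 20 regions and at 52% of all regions. The count was 10 of 20 with quantile normalization and 9 of 20 without vehicle 30 min replicate 1. The second U0126 library at 30 min held the highest signal of all 16 libraries in 14 of the 20, and without it the number above 0 was 3 of 20. Without it the regions above unstimulated at 30 min with U0126 were 2 of 20 in place of 7, and without replicate 1 they were 18. Set against the unstimulated library of the same number, active libraries numbered 2 were higher in 3 to 18 of the 20 regions and those numbered 1 in 1 to 4. Over all 940 regions the shares were 49.7% to 59.5% for libraries numbered 2 and 40.7% to 51.1% for those numbered 1.

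**Figure D5:**
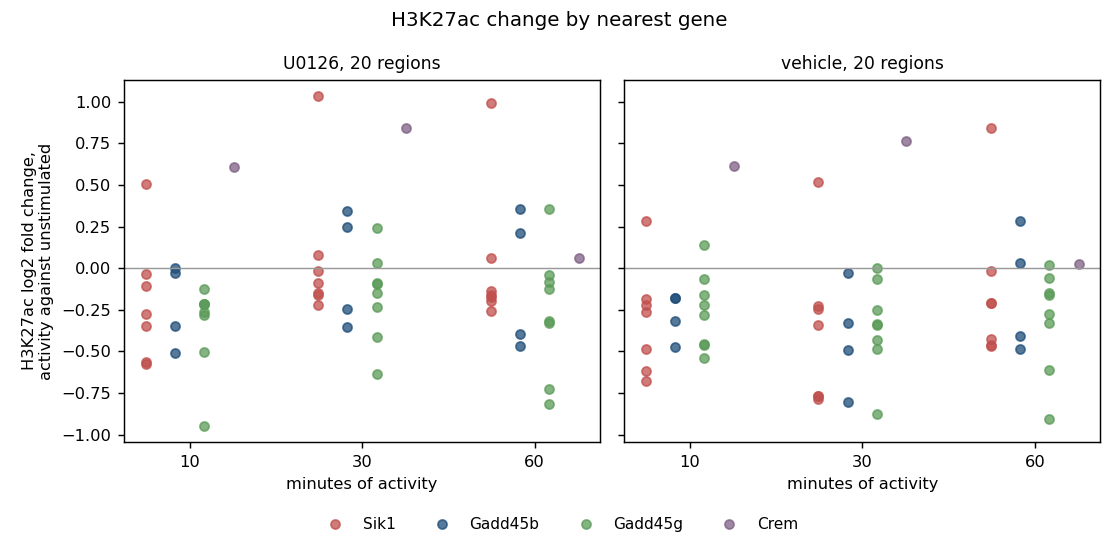
Log2 fold change of H3K27ac signal (activity against unstimulated, on the log2(signal + 0.628) scale) at 10, 30 and 60 min in the 20 regions, with U0126 (left) and vehicle (right), placed side by side by nearest gene. The highest point is the region nearest Sik1 at 30 min with U0126, at 1.03, and most of the other regions lie below 0.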

How the data were processed

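Pol II and H3K27ac ChIP-seq libraries of mouse neurons were compared from the authors' tables. Per the submitters' processing notes, Bowtie2, SAMtools and bedtools were used with the mm9 build, in versions not given. The libraries were made with the NuGen Ultralow kit, per the labels' protocols. The deposited Pol II values are a signal (density) per 600 bp start-site window that the authors normalized with control start sites. The deposited H3K27ac values are a signal per enhancer region, normalized by the authors on a scale not given in the sources used here. No counts are in these tables, so depth and counting error are unknown.

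From these values, log2(value + pseudocount) was computed. The pseudocount, 0.146 in the Pol II table and 0.628 in the H3K27ac table, was the value at percentile 25 among those above 0. Each library was centred on its median over the windows tested. Centring over all windows was the first plan, and was moved to an alternative after the data were seen. Pol II windows in the upper 50% by mean density (13908 of 27815) and all 940 H3K27ac regions were fitted with limma 3.58.1 in R 4.3.3 (group means, trended variance, 15 and 8 residual degrees of freedom), with Benjamini-Hochberg adjustment over all of them and calls at an adjusted p under 0.05. The fit assumes that the lone library of U0126 at 180 min varies like the others. Activity at 1 to 60 min was set against 1 h unstimulated, and 180 and 360 min against 6 h. The fits were tested on simulated data.

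The genes named are all members, and of the pathway lists every gene called in vehicle activity or between pretreatments, with up to 3 more per list by size of change. The members and lists were chosen with earlier results of these data known. Promoter sequences are from RefSeq. The H3K27ac replicate numbers deviated together in all 28 pairs of groups (lowest correlation 0.28). They were taken to pair the libraries, and a fit with them as a block is also given. The main H3K27ac fit has no block, and SEs and counts come from it unless the block is named. Alternatives were another pseudocount, filter, centring, normalization, 1 window per gene, the replicate block and leaving out each library.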

Additional observations from a re-analysis of the deposited data

How the results depend on the processing

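All values are log2 changes or numbers of windows or regions called at an adjusted p under 0.05. Of 783 Pol II log2 changes of member windows recomputed under other settings, 755 kept their direction and side of the threshold, and of 800 H3K27ac log2 changes 800 did. These settings include the replicate block, which cannot alter a log2 change between groups of 2 libraries, only its p-value. Its values kept their direction by construction. A value counted as reversed only where it had been called or lay over 1 SE from 0, a rule set after seeing the data, and a further 31 Pol II and 37 H3K27ac values changed sign inside 1 SE and count among those kept. Leaving out 1 library kept 649 of 676 Pol II and 796 of 800 H3K27ac values, with 56 and 218 more sign changes inside 1 SE; a lone library left in a group is assumed to vary like the others.

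With no filter, 0, 13 and 3 windows were called with U0126 at 10, 30 and 60 min and 8 in the mean of these times, 5 in vehicle at 10 min and 83 in the mean, and Crtc1 at 30 min in vehicle was 0.00608. With quantile normalization the U0126 counts were 15 at 30 min and 22 in the mean, with Gadd45g at -0.0043 at 60 min and -0.074 in the mean. The vehicle counts were then 9 at 10 min, 20 at 30 min and 55 in the mean, with 0 members at 30 min and 1 in the mean. With no centring, U0126 gave 53 at 30 min and 74 in the mean. With 1 window per gene it gave 53 at 30 min, and U0126 minus vehicle gave 2, as it did with the pseudocount at percentile 50.

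Centring over all windows, added after seeing the data, moved the median of all tested windows to 0.34 at 30 min and 0.23 in the mean in vehicle. It gave 228 windows higher and 2 lower at 30 min (99.1% higher, against 186 and 29, or 86.5%, when centred over the windows tested), and its counts were 0, 13, 0 and 7 with U0126 at 10, 30 and 60 min and in the mean, and 5 at 10 min and 96 in the mean in vehicle. There Crtc1 at 30 min was 0.00608, less than the shift of the median.

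Same-numbered Pol II libraries tended to deviate together, with a correlation over 0.1 in 94 of 105 pairs of groups (median 0.249, lowest -0.0623). The rule used asked for every pair, so the block stayed an alternative. A replicate block for Pol II called 29, 358, 66 and 286 windows with U0126 at 10, 30 and 60 min and in the mean, with 0, 3, 1 and 3 members, and 147, 753, 163 and 649 in vehicle, with 2, 5, 3 and 4 members. U0126 minus vehicle gave 4. Beyond the calls without it, the block called Creb1, Gadd45b and the second Crem window with U0126 at 30 min (adjusted p = 0.0196, 0.0012 and 0.0272) and in the mean, and Gadd45b at 60 min. In vehicle it added Gadd45g at 10 min, 30 min and in the mean (adjusted p = 0.0289, 0.0213 and 0.00541), Creb1 at 10 min, the strongest Crem window at 30 min (adjusted p = 0.00969) and Sik1, Creb1 and Gadd45b at 60 min. For H3K27ac, whose numbers pair, the block called 12 regions with U0126 and 7 in vehicle at 60 min and changed no other count. Quantile normalization called 1 region each at 10, 30 and 60 min with U0126.

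Leaving out 1 library at a time, U0126 counts were between 0 and 2 at 10 min, 5 and 294 at 30 min, 1 and 12 at 60 min and 3 and 136 in the mean, with 0 to 2 members at 30 min and 0 to 1 in the mean. Vehicle counts were between 4 and 19, 12 and 712, 3 and 27 and 10 and 430, with 0 to 1, 0 to 4 and 0 to 3 members at 10 min, 30 min and in the mean. U0126 minus vehicle gave 0 to 3. The change of the Pde4b window difference ran from -0.27 to 0.12, and the strongest Pde4b window with U0126 at 60 min from -1.12 to 0.0271. In H3K27ac, with U0126 the Gadd45b region 80293010 ran from -0.79 to 0.0894 at 10 min and the Gadd45g region 52010250 from -1.49 to 0.0437 at 60 min. For U0126 minus vehicle at 30 min, the Gadd45g region 51944440 ran from -0.0434 to 0.77 and the Sik1 region 31903300 from -0.0334 to 0.86. The cause was not tested for any of these. With 2 libraries a group and no counts, the limit is the spread between libraries.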
